A study of Mus musculus with 16 samples.

Results

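The 46 genes described here encode the constitutive proteasome, its activators and inhibitor, and the chaperones that put it together. They were taken by name, as every symbol made of Psm, a letter from a to g and a number, with an optional last letter. Of the 49 symbols of that form, Psmb8, Psmb9 and Psmb10, which encode the inducible catalytic subunits of the immunoproteasome, were left out of the count and are used as comparators. The 46 members stand among 55414 gene identifiers in the table, of which 49164 held values. By role they are 8 subunits of the alpha rings, 8 of the beta rings, 6 ATPases and 11 other subunits of the 19S cap, 7 assembly factors and 6 activators or inhibitors. The rule on names uses no expression value, but the set was chosen with earlier results of these data known.

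The cells were B16-F10, a mouse melanoma line labelled wild type, and every group held the same line. The cells of each sample received 1 of 4 antibodies for 24 h before polyadenylated RNA was taken: Mel321-31, Mel322-34, Mel321-35 or the isotype control MGO.53. The title of the study describes decoy antibodies against extracellular HSP70, and the stated purpose was to find genes that went up or down under each of them. There was no untreated group, so every difference below is from an antibody control. Of 16 labelled samples 15 were analysed. All 4 libraries of Mel321-31, Mel322-34 and MGO.53 and 2 of Mel321-35 belong to batch 1 in the labels. Replicate 1 of Mel321-35 is the sole library of batch 2 and is described apart, and replicate 2 of Mel321-35 was not analysed here. The labels call the samples biological replicates without saying whether they were separate cultures, so the tests weigh differences only against the scatter among these samples, which may be technical.

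The proteasome degrades proteins tagged with ubiquitin. Its 20S core is a barrel of stacked alpha and beta rings, in which the beta subunits Psmb5, Psmb6 and Psmb7 carry the chymotrypsin-like, caspase-like and trypsin-like cutting sites. The 19S cap recognises the tag, removes it, unfolds the protein and threads it into the core, while dedicated chaperones guide assembly and alternative caps such as PA28 and PA200 open the core without needing ubiquitin. Interferon swaps the catalytic subunits for Psmb8, Psmb9 and Psmb10, which shapes the peptides shown on MHC class I, and reduced antigen processing is a known feature of melanoma cells.

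The libraries held 19446531 to 37957845 counts, with 1.85% to 2.47% of counts on mitochondrial genes. All 9 melanocyte markers were above a level of 1 CPM (counts scaled to the library's total), and their summed level lay between 30784 and 32374 CPM, although edgeR called Sox10 lower with Mel321-31 and Sox10 and Pmel lower with Mel322-34. Of 8 immune markers, Adgre1 and Itgam were among those at 0 in every library and the summed level was 16.0 to 21.5 CPM. Most of that sum was Cd68, at 13.4 to 18.8 CPM, and Lyz2 also reached 1 CPM. Of 8 fibroblast and endothelial markers, Cdh5 was at 0 everywhere, Col1a1, Col1a2 and Pdgfra reached 1 CPM, and the sum was 7.73 to 12.1 CPM. Of 10 epithelial markers, Epcam was at 0 everywhere, but the sum differed between groups, at 15.2 to 26.6 CPM with MGO.53, 6.25 to 10.5 with Mel321-31, 8.47 to 21.3 with Mel322-34, 10.6 to 19.8 with the batch 1 libraries of Mel321-35 and 1.17 in the batch 2 library. The 5 epithelial markers tested were Krt8, Krt18, Krt19, Cdh1 and Msln, which reached 1 CPM. Of these, 3 were called lower with Mel321-31 and 1 with Mel322-34, while 0 immune, fibroblast or endothelial markers were called. In bulk RNA, fewer cells of a type and less RNA per cell cannot be told apart.

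The promoters of 4 genes are shown first because they belong to genes called below: Psmb6, Psmb3 and Psmd8, which were lower with Mel322-34, and Psmd6, which was higher with Mel321-31. Psmd3, which was also called lower with Mel322-34, is not among those shown. They come from RefSeq on the mouse build GRCm38.p6, span 250 bases before and 50 after the annotated start, and read 5′ to 3′ on the gene's strand. Capitals mark matches on either strand to the 3 motifs searched: the antioxidant response element core TGACNNNGC, the ETS core CCGGAA and the CCAAT box. The regions are chr11:70525107-70525406 on the plus strand for Psmb6, chr11:97703184-97703483 on the plus strand for Psmb3, chr7:29180624-29180923 on the minus strand for Psmd8 and chr14:14120896-14121195 on the minus strand for Psmd6.
Psmb6: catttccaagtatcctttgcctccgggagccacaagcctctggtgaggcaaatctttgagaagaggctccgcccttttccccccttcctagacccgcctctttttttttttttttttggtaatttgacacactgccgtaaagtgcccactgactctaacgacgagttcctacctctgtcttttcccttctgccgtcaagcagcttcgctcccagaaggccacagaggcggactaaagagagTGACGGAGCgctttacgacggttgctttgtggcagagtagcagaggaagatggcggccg
Psmb3: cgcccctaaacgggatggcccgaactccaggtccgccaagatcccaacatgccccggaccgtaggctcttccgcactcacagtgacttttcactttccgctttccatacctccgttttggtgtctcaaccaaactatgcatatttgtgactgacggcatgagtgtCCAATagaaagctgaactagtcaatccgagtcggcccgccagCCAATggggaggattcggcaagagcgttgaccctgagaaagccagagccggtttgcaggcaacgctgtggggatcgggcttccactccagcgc
Psmd8: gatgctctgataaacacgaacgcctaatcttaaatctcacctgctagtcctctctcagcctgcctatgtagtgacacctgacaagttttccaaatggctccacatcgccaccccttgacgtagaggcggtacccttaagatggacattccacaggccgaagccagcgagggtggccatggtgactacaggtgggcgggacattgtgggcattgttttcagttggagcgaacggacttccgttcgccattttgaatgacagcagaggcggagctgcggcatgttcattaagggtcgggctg
Psmd6: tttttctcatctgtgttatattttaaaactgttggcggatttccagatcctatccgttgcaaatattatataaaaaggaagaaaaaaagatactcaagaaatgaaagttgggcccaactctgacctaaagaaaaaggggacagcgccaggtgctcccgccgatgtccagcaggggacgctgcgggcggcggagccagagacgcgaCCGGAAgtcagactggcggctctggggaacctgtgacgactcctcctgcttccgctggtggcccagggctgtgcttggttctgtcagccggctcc
The Psmb6 window holds 1 antioxidant response element core, the Psmb3 window 2 CCAAT boxes and the Psmd6 window 1 ETS core, while the Psmd8 window holds none of the 3, so no motif is common to the windows shown. RefSeq promoters were matched for 38 of the 46 members. The ETS core was in 20 of the 38 (52.6%), against 31.3% of the tested genes that have a promoter and 16.7% of all genes that have one. The antioxidant response element core was in 6 (15.8%), those of Psmb5, Psmb6, Psmc6, Psmd12, Psmd9 and Psme4, against 16.7% and 14%. The CCAAT box was in 13 (34.2%), against 43.3% and 41.1%. These are matches of letters in a fixed window, with the motifs and the genes shown chosen after their values were seen.

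Levels within the isotype control were compared between genes per transcript length, as TPM (counts scaled by length and by the library's total), using 1 transcript length per gene from a GENCODE annotation of GRCm38, so that a gene with a shorter main transcript in these cells would be understated. Of the 14 subunits of the 20S core present, the beta-ring subunit Psmb4 had the highest level, 547 ± 9.55 TPM (SD, n = 4), and the alpha-ring subunit Psma3 the lowest, 90.7 ± 2.18 TPM, a 6.03-fold range for subunits that each core particle holds in equal number. Psma3 and the next lowest, Psma2, had lengths of 2846 and 2911 bases, against 766 to 1758 for the other core subunits. In CPM the lowest core subunit was Psma5 at 95.6, with Psma3 at 115. The place of Psma3 and the width of the range thus depend on the lengths used. The catalytic subunits stood at 478 ± 19.6 TPM for Psmb6, 468 ± 5.88 for Psmb7 and 265 ± 11.8 for Psmb5. Psmb6 overlapped Psmb7 over libraries, and both lay above every library of Psmb5. Of the 13 pairs of neighbours in the order of core subunits, 5 overlapped over the MGO.53 libraries.

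The highest level of any member was that of the 19S lid subunit Psmd8, at 977 ± 27.2 TPM, while the lowest of the 17 tested 19S subunits was the lid subunit Psmd11 at 151 ± 5.09 TPM. In CPM the lowest 19S subunit was Psmd6, at 96.7. The 7 assembly factors were all below the core and cap, from 35.9 TPM for the base chaperone Psmd5 to 69.4 TPM for the 20S chaperone Psmg1. Psmd5 had the longest length of the 7, 4397 bases, and in CPM it was the highest of them, at 70.2. Among activators, PA28 gamma (Psme3), the nuclear form, stood at 256 ± 8.48 TPM, above PA28 alpha (Psme1) at 80.2 ± 3.33, PA28 beta (Psme2) at 61.3 ± 4.13 and PA200 (Psme4) at 53.5 ± 3.25. The inhibitor PI31 (Psmf1) was at 39.3 ± 0.997 TPM. The inducible subunits were lower than all of these: Psmb10 at 28.8 ± 2.36 TPM, Psmb8 at 4.81 ± 1.43 and Psmb9 at 1.56 ± 0.343.

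Members with restricted tissue use were near 0. Psma8, the alpha subunit of testis proteasomes, had 0 counts in all 15 libraries, and Psmb11, the beta subunit of thymic epithelium, had 7 in all. Both missed the filter on low counts and were not tested. Psme2b, a close copy of Psme2, passed it at 0.888 ± 0.373 CPM (SD, n = 4) with MGO.53. Reads shared between the copies cannot be divided from counts alone, so its values and a small part of those of Psme2 are uncertain. Many proteasome genes also have processed pseudogenes, and neither the treatment of shared reads nor the use of strand in counting is given in the sources used here. The remaining 43 members were well measured, with a coefficient of variation over the 14 batch 1 libraries of 2.37% (Psmd2, a base scaffold) to 10.0% (Psmg4, a 20S chaperone) and a median of 4.83%. Within the 4 MGO.53 libraries the median was 3.45%.

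**Figure D1:**
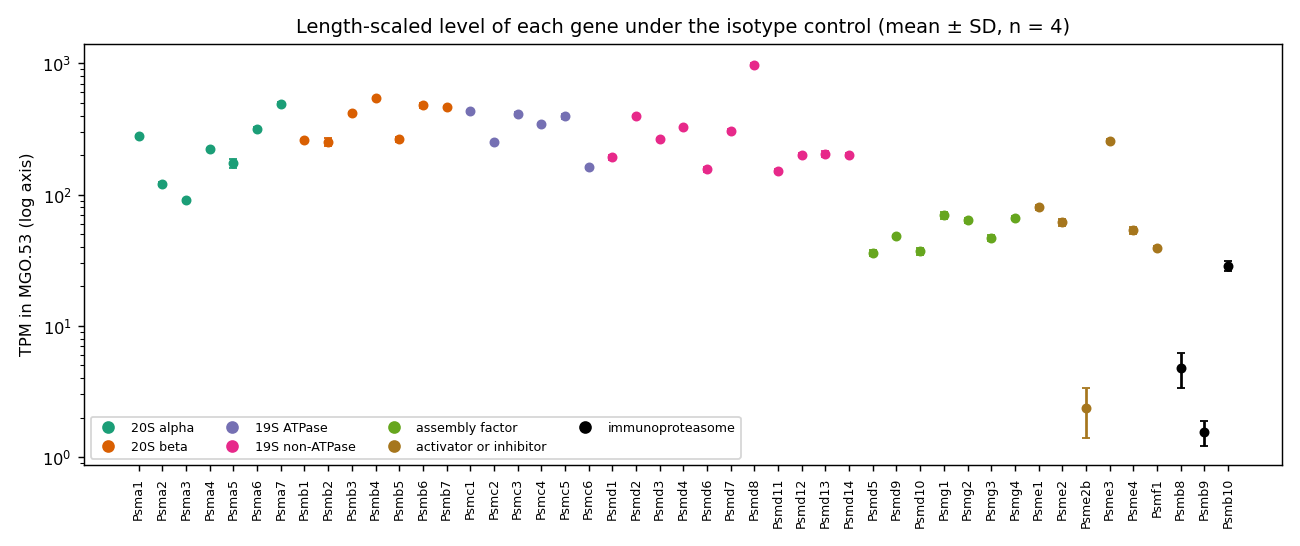
Length-scaled level of each proteasome gene under the isotype control, in TPM on a log axis; points are means and bars SDs over the 4 MGO.53 libraries, coloured by role. Psmd8 stands highest at 977 TPM, the assembly factors lie between 35.9 and 69.4 TPM, and Psmb8, Psmb9 and Psmb10 lie below every other gene drawn except Psme2b.

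Mel322-34 was the antibody with the most proteasome genes called against MGO.53. Of the 44 members tested, 4 fell and 0 rose at an edgeR adjusted p under 0.05 over all 14633 genes. They were Psmb3 and Psmb6 of the beta rings and Psmd3 and Psmd8 of the 19S lid. Psmb3 fell by 13% and the other 3 by less. Of all tested genes 6.87% were called in either direction and 2.84% were called lower, beside 9.1% of the members, and 4.03% were called higher.

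Psmb3 (ENSMUSG00000069744, chromosome 11) is a beta-ring subunit without a cutting site. It stood at 145, 144, 139 and 140.1 CPM in the 4 MGO.53 libraries and at 133, 116, 123 and 123 CPM in those of Mel322-34. All 4 treated libraries lay below all 4 controls. It fell by 13% (log2 fold change -0.20, SE 0.050, edgeR adjusted p = 0.0164). With the other antibodies Psmb3 was at 154, 129, 133 and 124 CPM for Mel321-31, where replicate 1 was above every control, and at 134 and 127 CPM for Mel321-35, both below every control.

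Psmb6 (ENSMUSG00000018286, chromosome 11) carries the caspase-like site. Its levels were 176, 174, 159.7 and 169 CPM with MGO.53 and 150.3, 155, 145 and 151 CPM with Mel322-34, again with no overlap. It fell by 11.4% (log2 fold change -0.17, SE 0.044, edgeR adjusted p = 0.0169). With Mel321-31 it was at 173, 151, 147 and 150.1 CPM, where 3 libraries lay below every control and replicate 1 lay among them, and with Mel321-35 at 153 and 159 CPM, both below every control. The corresponding differences missed the threshold (log2 fold change -0.13, SE 0.044, edgeR adjusted p = 0.103 for Mel321-31; log2 fold change -0.13, SE 0.054, edgeR adjusted p = 0.406 for Mel321-35).

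Psmd3 (ENSMUSG00000017221, chromosome 11) is a lid subunit of the 19S cap. It was at 255, 263, 245 and 244 CPM with MGO.53 and 237, 224, 223 and 223 CPM with Mel322-34. The highest treated library was below the lowest control. It fell by 9.85% (log2 fold change -0.15, SE 0.035, edgeR adjusted p = 0.0104). Psmd8 (ENSMUSG00000030591, chromosome 7), the lid subunit with the highest level of all members, was at 644, 697, 655 and 680.1 CPM with MGO.53 and 620, 625, 625 and 619.8 CPM with Mel322-34. The groups did not overlap, and the treated libraries were much closer to each other than the controls were. It fell by 6.94% (log2 fold change -0.10, SE 0.031, edgeR adjusted p = 0.043).

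**Figure D2:**
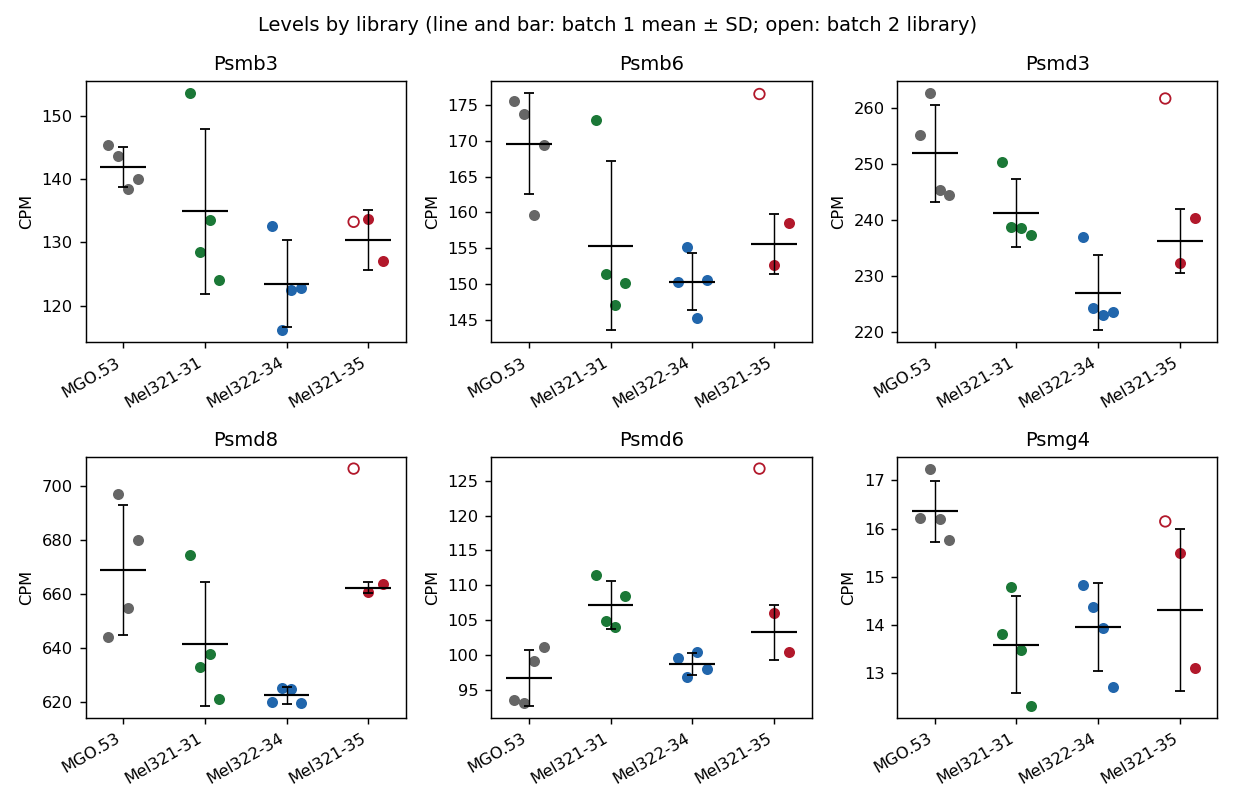
Level in CPM of the 5 genes called in any comparison and of Psmg4, by antibody; points are libraries, lines and bars the mean and SD of the batch 1 libraries (n = 4, or 2 for Mel321-35), and the open circle is the batch 2 library. For Psmb3, Psmb6, Psmd3 and Psmd8 all Mel322-34 libraries lie below all MGO.53 libraries; vertical axes do not start at 0.

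None of the other members passed the threshold with Mel322-34. The log2 fold change was below 0 for 35 of the 44 tested members, the 4 called genes included (79.5%), beside 50.3% of all tested genes, and the median was -0.055 against -0.0011. All 7 tested beta subunits, all 6 ATPases and all 7 assembly factors were below 0, as were 5 of 7 alpha subunits and 7 of 11 other cap subunits. At an unadjusted p under 0.05, 11 members were lower (25%) and 1 was higher, beside 10.5% and 11.7% of all tested genes. For 8 members (18.2%) the libraries did not overlap and were lower, beside 5.92% of all genes, and for 0 were they higher, beside 7.03%. The summed level of all members was 7028 to 7254 CPM with Mel322-34 and 7331 to 7425 CPM with MGO.53, which did not overlap.

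Outside the 4 called genes, the smallest adjusted p-values were those of the lid subunit Psmd11 (log2 fold change -0.11, SE 0.036, edgeR adjusted p = 0.0546), the ATPase Psmc4 (log2 fold change -0.12, SE 0.038, edgeR adjusted p = 0.0628), the beta subunit Psmb2 (log2 fold change -0.17, SE 0.059, edgeR adjusted p = 0.0735) and Psmg4, a small 20S chaperone (log2 fold change -0.22, SE 0.080, edgeR adjusted p = 0.0851). Psmd4, a ubiquitin receptor of the cap, was below every control in all 4 libraries (log2 fold change -0.11, SE 0.042, edgeR adjusted p = 0.107). The chaperone Psmg1, which works as a pair with Psmg2, had a log2 fold change of -0.14, beside -0.12 for Psmg2 and -0.098 for Psmg3. Those of the base chaperones were -0.063 for Psmd5, -0.034 for Psmd9 and -0.0056 for Psmd10. None of these passed the threshold. The catalytic subunits Psmb5 and Psmb7 differed by less than the test resolves, with 95% intervals of -9.24% to 1.79% and -6.67% to 4.87%, and the deubiquitinase Psmd14 likewise (-6.25% to 4.9%).

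Few members pointed up with Mel322-34. The proteasome activator PA200 (Psme4) had the largest positive value among the well-measured members (log2 fold change 0.099, SE 0.044, edgeR adjusted p = 0.176), followed by the alpha subunits Psma3 (0.047) and Psma5 (0.045) and the base scaffold Psmd1 (0.043). Psme3 was at 307 ± 9.65 CPM against 303 ± 11.3 (SD, n = 4 each), with an interval of -4.06% to 7.06%. The interferon-inducible PA28 subunits had intervals of -10.5% to 6.45% for Psme1 and -15.4% to 4.52% for Psme2, and the inhibitor Psmf1 one of -11.1% to 1.58%.

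Transcript length moved with these values. The tested members' median transcript length was 1435 bases, against 2773 over all tested genes. With Mel322-34 the log2 fold change rose with length over the 10172 tested genes of at least moderate level (Spearman 0.517, a description across genes of the same libraries). It also rose with length over 43 members (0.431). With the length trend of each library removed, the members' median became 0.0048 and 1 call was left, Psmd3 (log2 fold change -0.117, edgeR adjusted p = 0.0397), while Psmb3 was at -0.0958, Psmb6 at -0.0722 and Psmd8 at -0.0445. With the epithelial marker sum, which was lower in part of the Mel322-34 libraries, as a covariate, Psmb3 was still called (-0.221, edgeR adjusted p = 0.0268). The fold changes of the other 3 were -0.136 for Psmd3, -0.134 for Psmb6 and -0.0844 for Psmd8 in that fit, on the log2 scale, with edgeR adjusted p-values of 0.0568, 0.126 and 0.21. Leaving out MGO.53 replicate 2 gave 0 calls and leaving out Mel322-34 replicate 3 gave 1, Psmd3. The part of length or of other cells in the result was not tested beyond these fits.

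**Figure D3:**
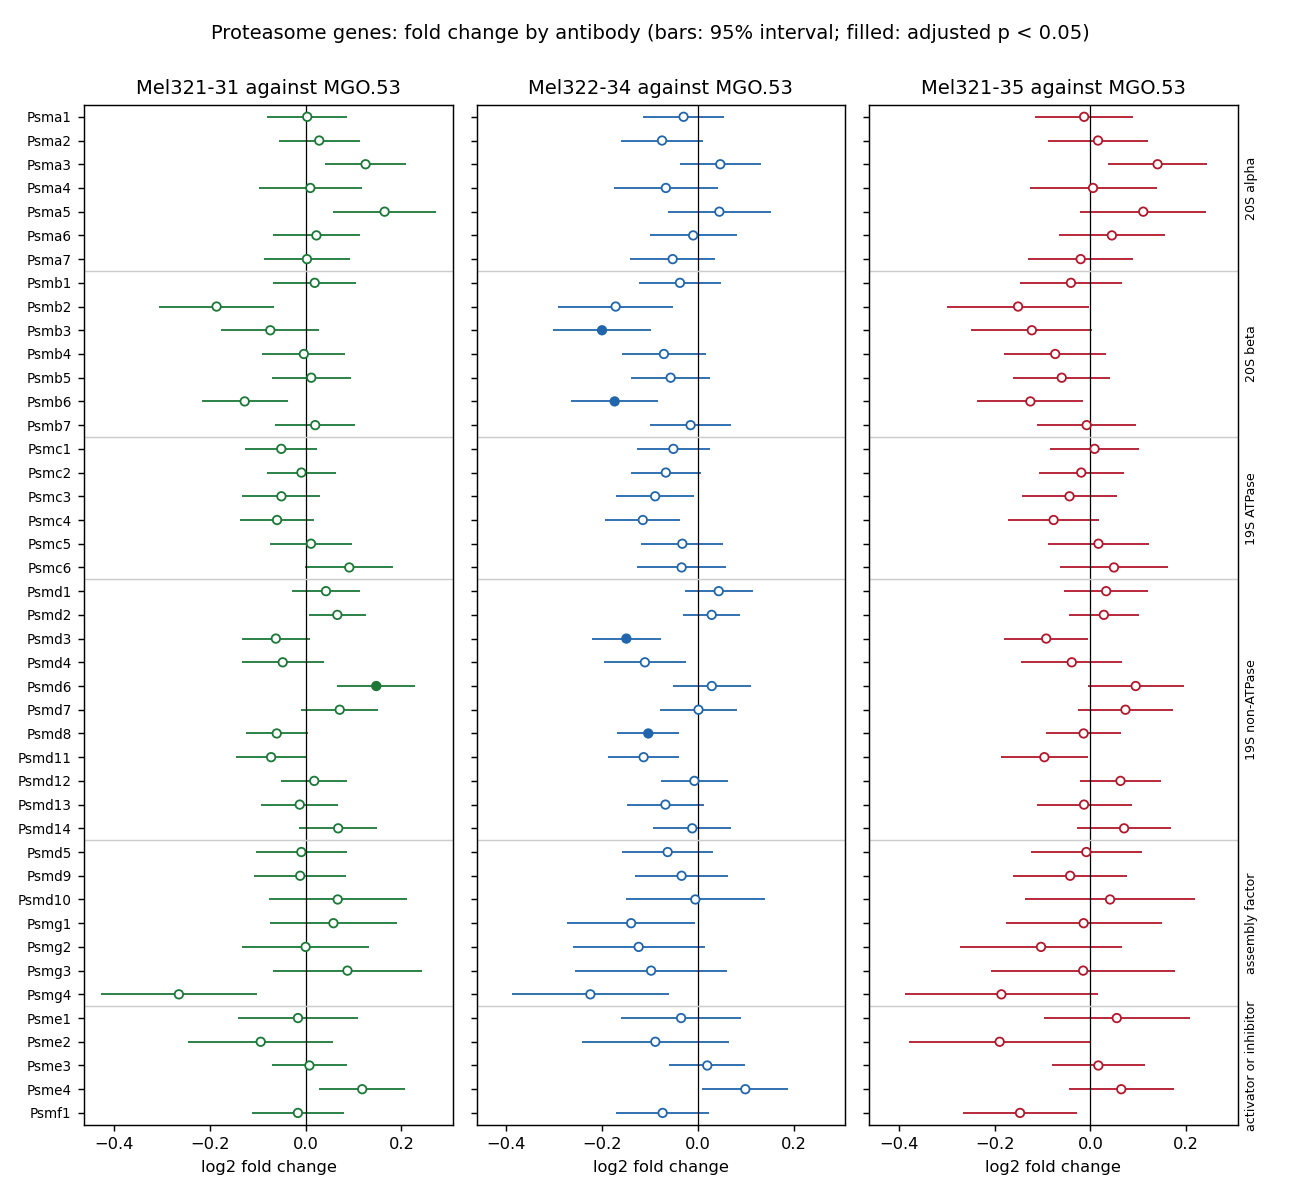
Log2 fold change of 43 tested proteasome genes against MGO.53 for each antibody, grouped by role; points are estimates, bars 95% intervals, and filled points have an edgeR adjusted p under 0.05. Mel321-31 has 1 filled point (Psmd6), Mel322-34 has 4, all left of 0, and Mel321-35 has 0; estimates lie between -0.265 and 0.165.

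With Mel321-31, 1 of the 44 tested members was called. Psmd6 (ENSMUSG00000021737, chromosome 14), a lid subunit, rose by 10.8% (log2 fold change 0.15, SE 0.040, edgeR adjusted p = 0.0345). It was at 93.5, 93.1, 99.1 and 101 CPM with MGO.53 and 112, 105, 104 and 108 CPM with Mel321-31, with all treated libraries above all controls. Its levels were 99.6, 96.8, 100.4 and 98 CPM with Mel322-34, inside the control range, and 106 and 100.4 CPM with Mel321-35. Of all tested genes 3.53% were called in either direction and 1.41% were called higher, beside 2.3% of the members called, so the members' share was near the background.

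The members did not share a direction with Mel321-31: 23 were above 0 and 21 below (47.7%, beside 50.4% of all genes), and the median log2 fold change was 0.0030 beside -0.0014 over all genes. At an unadjusted p under 0.05 there were 5 members higher and 3 lower, together 18.2%, beside 17.8% of all tested genes (8.94% higher and 8.83% lower). All 7 tested alpha subunits were above 0, led by Psma5 (log2 fold change 0.16, SE 0.052, edgeR adjusted p = 0.0753) and Psma3 (log2 fold change 0.13, SE 0.041, edgeR adjusted p = 0.0853), while 4 of 7 beta subunits were below 0, led by Psmb2 (log2 fold change -0.19, SE 0.059, edgeR adjusted p = 0.0724) and Psmb6. The chaperone Psmg4 had the largest negative value (log2 fold change -0.26, SE 0.079, edgeR adjusted p = 0.0587), at 13.8, 14.8, 13.5 and 12.3 CPM against 16.2, 17.2, 16.2 and 15.8 CPM with no overlap. PA200 was again above 0 (log2 fold change 0.12, SE 0.044, edgeR adjusted p = 0.134). None of these passed the threshold.

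The groups did not overlap for 3 members that were higher (Psmd2, Psmd6 and Psma3) and 2 that were lower (Psmb2 and Psmg4), 6.8% and 4.5%, beside 4.61% and 5.38% of all genes. Among the ATPases the values ran from -0.060 for Psmc4 to 0.091 for Psmc6. Psmb5 and Psmb7 had 95% intervals of -4.78% to 6.74% and -4.33% to 7.47%. For the ubiquitin receptor Psmd4 the interval was -8.82% to 2.65%, for the deubiquitinase Psmd14 -0.884% to 10.9% and for the inhibitor Psmf1 -7.47% to 5.67%. The activators had intervals of -9.29% to 7.83% for Psme1, -15.7% to 4.11% for Psme2 and -4.81% to 6.21% for Psme3. The other chaperones were between -0.011 (Psmd9) and 0.087 (Psmg3).

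Replicate 1 of Mel321-31 stood apart from the other libraries of its group. In replicate 1 the median member was 0.105 above the MGO.53 mean on the log2 scale, and all but 7 of the 43 well-measured members were above it, while in replicates 2 to 4 the median was -0.041 to -0.017. That library also went against its group in transcript length: over all genes, its deviations from the mean of the 14 batch 1 libraries had a Spearman correlation of -0.423 with length, against 0.217 to 0.374 in replicates 2 to 4. Without it the median member was at -0.035 and 5 members were called: Psmd6 was still higher (0.128, edgeR adjusted p = 0.0424), and Psmb6 (-0.182, 0.00307), Psmb3 (-0.141, 0.0310), Psmb2 (-0.207, 0.0325) and Psmg4 (-0.272, 0.0457) were lower. Leaving out replicate 2, 3 or 4 of Mel321-31, or MGO.53 replicate 1 or 2, gave 0 calls. With the length trend removed 2 were called, both higher: Psmd6 (0.189, edgeR adjusted p = 0.0046) and Psma5 (0.209, 0.00749). With the epithelial sum as a covariate the count was 0, and Psmd6 had a log2 fold change of 0.118 (edgeR adjusted p = 0.647). That sum did not overlap between the groups, at 6.25 to 10.5 CPM with Mel321-31 and 15.2 to 26.6 with MGO.53. The fit could therefore hardly separate it from the antibody. What set replicate 1 apart was not tested.

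**Figure D4:**
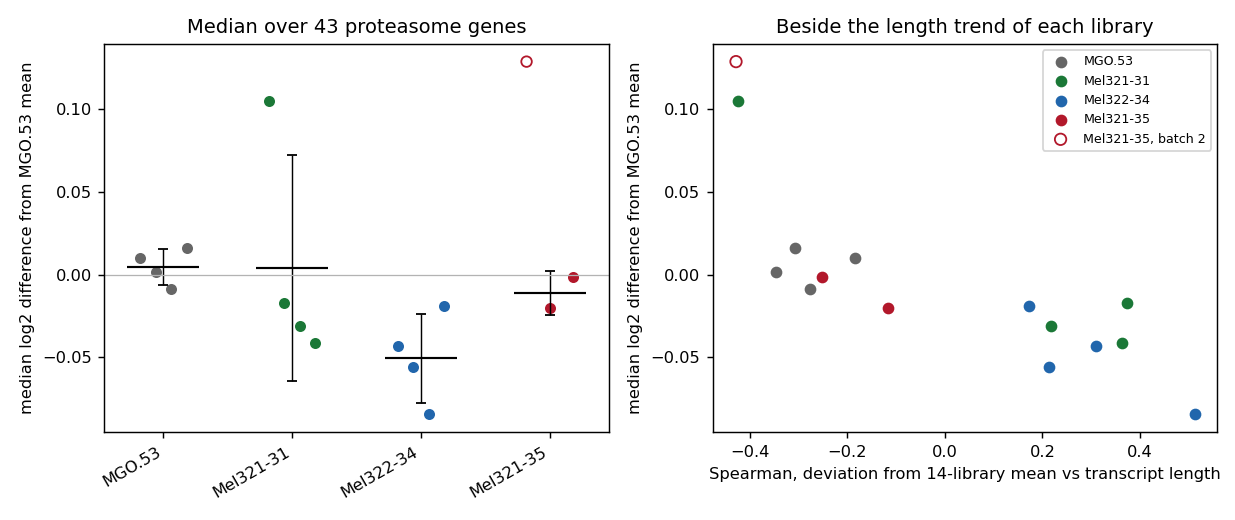
Left, the median log2 difference of 43 proteasome genes from the MGO.53 mean in each library, with the batch 1 mean and SD; right, the same value beside the Spearman correlation of each library's deviation from the 14-library mean with transcript length over all genes. Mel321-31 replicate 1 (0.105) and the open batch 2 library (0.129) stand above the rest and have the lowest correlations, -0.423 and -0.428.

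With Mel321-35, 0 of 44 members were called by edgeR, beside 0.041% of all tested genes, and DESeq2 and limma-voom also called 0. At an unadjusted p under 0.05 there were 7 members (15.9%), 1 higher and 6 lower, beside 10.5% of all genes (5.48% higher and 5.06% lower). Only 2 libraries stood against 4, so that intervals were wider. The smallest adjusted p was that of Psma3 (log2 fold change 0.14, SE 0.050, edgeR adjusted p = 0.29), which was at 124 and 129 CPM against 117, 116, 114 and 112 CPM. The median log2 fold change was -0.013, with 25 members below 0 (56.8%) beside 50.3% of all genes.

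All 7 tested beta subunits were below 0 with Mel321-35, from -0.15 for Psmb2 to -0.0078 for Psmb7. All comparisons with MGO.53 share the same 4 control libraries, and MGO.53 replicate 2 had the highest Psmb2 level of all libraries, 108 CPM. The libraries did not overlap for 10 members that were lower (22.7%) and 4 that were higher (9.1%), beside 9.83% and 10.6% of all genes. The 10 were Psmb2, Psmb3, Psmb4, Psmb6, Psmc4, Psmd3, Psme2, Psmf1, Psmg2 and Psmg4, and the 4 were Psma3, Psma5, Psmd7 and Psmd14. The inhibitor Psmf1 was at 60.2 and 60.1 CPM against 67.3, 68, 63.8 and 67.3 CPM (log2 fold change -0.15, SE 0.058, edgeR adjusted p = 0.351), and Psme2 had the lowest fold change of the well-measured members (log2 fold change -0.19, SE 0.092, edgeR adjusted p = 0.473). The intervals of the other catalytic subunits were -10.6% to 2.94% for Psmb5 and -7.39% to 6.82% for Psmb7, and those of the activators Psme1, Psme3 and Psme4 were -6.55% to 15.5%, -5.41% to 8.18% and -3.1% to 12.9%.

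The batch 2 library of Mel321-35 stood apart from the batch 1 libraries of the same antibody. It was above all 14 batch 1 libraries of the 4 antibodies in 27 of the 44 tested members (61.4%) and below all in 1, the inhibitor Psmf1, while over all tested genes the shares were 14.8% and 14.1%. The 20S catalytic subunits stood at 126, 177 and 298 CPM for Psmb5, Psmb6 and Psmb7. The PA28 subunit Psme1 was at 45.8 CPM and the lid subunit Psmd8 at 707 CPM. The library was as negative in its length trend as Mel321-31 replicate 1. Batch, antibody and replicate cannot be told apart for a single library.

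Between antibodies, edgeR, DESeq2 and limma-voom each called 0 of 44 members in each of the 3 comparisons, where edgeR called 0.0205% of all genes for Mel321-31 against Mel322-34, 0.103% for Mel321-31 against Mel321-35 and 0.26% for Mel322-34 against Mel321-35. At an unadjusted p under 0.05 the members numbered 8, 1 and 1, beside 6.96%, 8.06% and 9.61% of all genes. All 8 were higher with Mel321-31 than with Mel322-34 (18.2%, beside 2.95% of all genes). They were led by Psmg1, at 37, 34.5, 30.8 and 31.9 CPM with Mel321-31 and 28.5, 31, 28 and 29.5 CPM with Mel322-34 (log2 fold change 0.20, SE 0.064, edgeR adjusted p = 0.504), and by Psmd6 (log2 fold change 0.12, SE 0.039, edgeR adjusted p = 0.544). The single members were Psmf1, higher with Mel321-31 than with Mel321-35 (log2 fold change 0.13, SE 0.057, edgeR adjusted p = 0.572), and Psmd8, lower with Mel322-34 than with Mel321-35 (log2 fold change -0.090, SE 0.038, edgeR adjusted p = 0.444). The median difference between Mel321-31 and Mel322-34 was 0.056 with all libraries and 0.021 without Mel321-31 replicate 1. A gene called with 1 antibody and not with another was therefore not shown to differ between them.

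The inducible catalytic subunits were set against the constitutive ones whose place they take, as a ratio of counts within each library, which needs no scaling between libraries. With MGO.53, Psmb8 counts were 3.11%, 3.77%, 2.007% and 4.28% of those of Psmb5. With Mel321-31 they were 1.62%, 0.662%, 1.13% and 1.52%, all below every control. The mean log2 ratio was -6.42 ± 0.587 against -4.98 ± 0.478 (SD, n = 4 each), a difference of -1.44 (exact two-sided permutation p = 0.0286, the smallest that 4 against 4 allows; 0.129 after Benjamini-Hochberg adjustment over the 9 ratio tests). Psmb8 itself was called in the fit across all genes (log2 fold change -1.40, SE 0.30, edgeR adjusted p = 0.00742), while Psmb5 was at 110.1, 108, 102 and 107 CPM against 108, 100, 106 and 109 CPM, with overlap.

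For Psmb9 over Psmb6 the Mel321-31 libraries were at 0.441%, 0.400%, 0.410% and 0.410% and the MGO.53 libraries at 0.697%, 0.446%, 0.558% and 0.499%, a log2 difference of -0.387 without overlap (exact permutation p = 0.0286, adjusted 0.129). Psmb9 counts were only 12 to 41 per batch 1 library. For Psmb10 over Psmb7, the mean ratio was 6.08% with Mel321-31 and 6.93% with MGO.53 (log2 difference -0.188, exact permutation p = 0.0857, adjusted 0.257). None of the 9 ratios passed after adjustment. Even ratios without overlap, at the smallest permutation p of 0.0286, had an adjusted p of 0.129. The test could therefore hardly pass any ratio, and its result does not show that the ratios were unchanged.

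With Mel322-34 the log2 differences were -0.674 for Psmb8 over Psmb5 (exact permutation p = 0.200, adjusted 0.360), -0.353 for Psmb9 over Psmb6 (0.314, 0.471) and -0.0878 for Psmb10 over Psmb7 (0.400, 0.514). With Mel321-35 they were -0.765 (0.200, 0.360), 0.284 (0.467, 0.525) and -0.0400 (0.733, 0.733), where 2 libraries against 4 allow no p below 0.0667. In the batch 2 library Psmb8 had 0 counts, which allows up to 3 in a library of 26102935, Psmb9 had 3 and Psmb10 had 400. For the PA28 subunits, which interferon also induces, the 95% intervals of the difference with Mel321-31 were -9.29% to 7.83% for Psme1 and -15.7% to 4.11% for Psme2. The epithelial marker sum was lower in every Mel321-31 library and in the batch 2 library than in every MGO.53 library, as given above, and its part in the ratios was not tested.

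**Figure D5:**
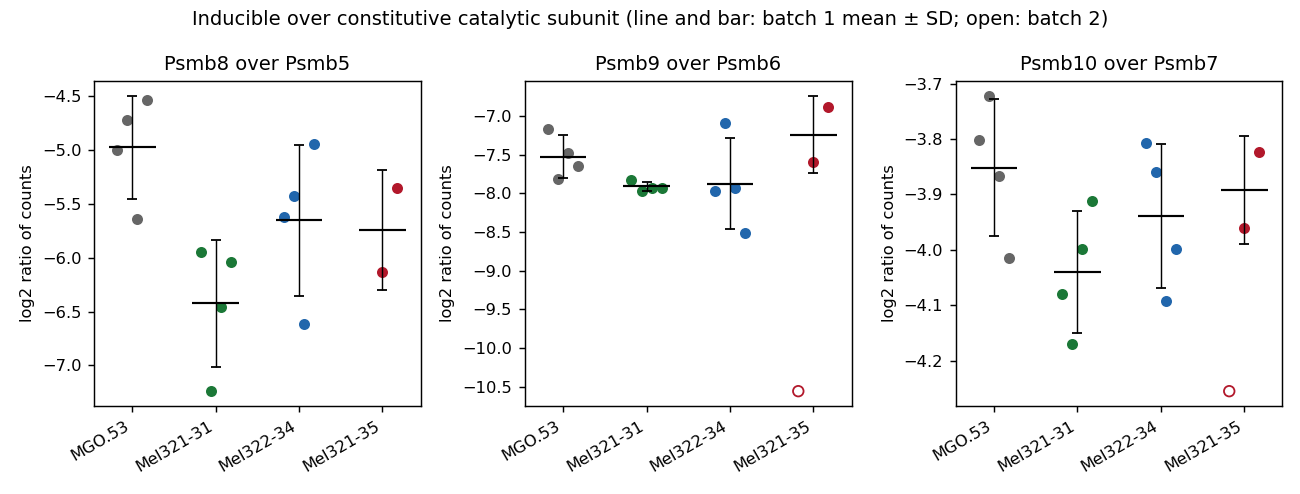
Log2 ratio of counts of each inducible catalytic subunit to the constitutive subunit it replaces, by antibody; points are libraries, lines and bars the mean and SD of batch 1 libraries, open circles the batch 2 library, which has no Psmb8 point because its count was 0. The Psmb8 to Psmb5 ratio of all 4 Mel321-31 libraries (-7.24 to -5.95) lies below all MGO.53 libraries (-5.64 to -4.54).

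Genes that work with the proteasome were read from lists chosen with earlier results of these data known. Of 20 tested proteasome partners 1 rose with Mel321-31, Ecpas, which binds the 26S particle (log2 fold change 0.15, SE 0.040, edgeR adjusted p = 0.0354), and 0 fell, beside 1.41% and 2.13% of all tested genes. With Mel322-34, the ubiquitin ligase Ube3a rose (log2 fold change 0.16, SE 0.045, edgeR adjusted p = 0.0312), and the cap ubiquitin receptor Adrm1 (log2 fold change -0.16, SE 0.037, edgeR adjusted p = 0.0104) fell, where 4.03% of all tested genes were called higher and 2.84% lower. The median log2 fold change over the list was 0.033 with Mel321-31 and -0.0037 with Mel322-34. The core maturation factor Pomp had intervals of -0.488% to 11.1% with Mel321-31 and -6.87% to 4.06% with Mel322-34, the small cap subunit Sem1 -0.175% to 14.8% and -8.15% to 5.65%, and the cap deubiquitinases Usp14 -1.43% to 10.3% and -5.3% to 6.05% and Uchl5 -1.12% to 12.6% and -7.34% to 5.59%.

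The transcription factor Nfe2l1 (NRF1) raises proteasome genes together when the proteasome is short of capacity, after it is cleaved by Ddi2 and processed by Ngly1 and Vcp. Nfe2l1 was at 246 ± 12.3 CPM under Mel322-34 and 231 ± 4.5 under MGO.53 (SD, n = 4 each), with all 4 treated libraries above the controls (log2 fold change 0.090, SE 0.037, edgeR adjusted p = 0.14), and its interval with Mel321-31 was -3.39% to 7.25%. Of the 13 genes of this list, 1 was called lower with Mel321-31, the small Maf partner Maff (log2 fold change -0.33, SE 0.085, edgeR adjusted p = 0.0263), and 1 with Mel322-34, Nfe2l2 (log2 fold change -0.15, SE 0.037, edgeR adjusted p = 0.017), the related factor of the oxidative stress response, beside the same 2.13% and 2.84% of all genes called lower. Neither Ddi2 (0.084 and 0.097) nor Ngly1 (0.14 and 0.084) nor Vcp (0.063 and 0.021) passed with Mel321-31 or Mel322-34. Of 19 genes for ubiquitin supply and Vcp cofactors, 1, the polyubiquitin gene Ubb, fell with Mel322-34 (log2 fold change -0.14, SE 0.036, edgeR adjusted p = 0.0189), beside 2.84% of all genes, and 0 were called with Mel321-31, beside 3.53%.

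In the list of MHC class I and immunoproteasome genes, 7 of 13 fell with Mel321-31 and 2 with Mel322-34, beside 2.13% and 2.84% of all tested genes. The 7 were Psmb8, the peptide transporter genes Tap1 (-0.86) and Tap2 (-0.88), Tapbp (-0.32), B2m (-0.23), H2-K1 (-0.81) and H2-D1 (-0.39). The 2 were B2m (-0.19) and H2-D1 (-0.28). The median log2 fold change of this list was -0.40 with Mel321-31, beside 0.0030 for the constitutive members, and -0.19 with Mel322-34, beside -0.055. In the same comparisons 3 and 1 of the 5 tested epithelial markers were called lower, and their part in these counts was not tested. With Mel321-35, edgeR called 0 genes of any of the 4 lists.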

How the data were processed

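RNA sequencing counts of B16-F10 cells under 4 antibodies were analysed. Directional libraries were made from polyadenylated RNA, per the labels' protocols. The submitters' processing notes name HTSeq 2.01, STAR 2.7.10a and DESeq2, the last without a version, with genome build and annotation not given in the sources used here. The authors deposited raw counts for 55414 gene identifiers and, for 19365 of them, a normalised signal, which equalled the deposited count divided by 1 size factor per library. Raw counts were tested, and the authors' signal served only to check the columns. The table held 0 other columns of per-sample values and 0 lines naming no gene.

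Counts of the 14 batch 1 libraries were tested with edgeR 4.0.16 (R 4.3.3) by the quasi-likelihood F-test, with TMM scaling, the default expression filter and 1 fit over the 4 groups (biological coefficient of variation 5.46%, 10 residual degrees of freedom). P-values were adjusted by Benjamini-Hochberg over 14633 genes. CPM levels used TMM factors of all 15 libraries. Ratios were compared by exact permutation over libraries. With 19446531 to 37957845 counts per library, the median standard error of a member's log2 fold change was 0.042 against MGO.53 for Mel321-31 and Mel322-34 and 0.052 for Mel321-35. Limits on a count of 0 cover counting error only. DESeq2 1.42.0, limma 3.58.1, other scalings, filters and sample sets were alternatives.

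The members and lists were chosen with earlier results of these data known. Named were called members, catalytic, activator, inhibitor, receptor, assembly and tissue-restricted genes, the extremes of each role, and called genes of the lists. Transcript lengths came from GENCODE and promoters from RefSeq, both on GRCm38. Antisense partners and near-identical copies leave counts uncertain. Values of some genes of the lists are not reported here.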

Additional observations from a re-analysis of the deposited data

Results flagged for a closer look

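Among 144 groups of 4 libraries checked (the level of each tested member and of Psmb8, Psmb9 and Psmb10 in 3 antibody groups, and the median position of the members), 17 had a library whose gap to the nearest other was a large part of the group's range. Chance gives about 1 in 20. Of the 17, 9 were Mel321-31 replicate 1.

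In that library 7 levels were above the other replicates: Psma1 at 161 CPM (others all 145), Psma6 at 167 (144 to 145), Psmb1 at 231 (199 to 201), Psmb6 at 173 (147 to 151), Psmb7 at 274 (234 to 236), Psmd3 at 250 (237 to 239) and Psmb9 at 0.762 (0.603 to 0.615). Psme3 was below them, at 280 CPM against 312 to 314. Its median position was 0.105 on the log2 scale, against -0.0413 to -0.0171.

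In Mel322-34, Psma1 was at 155 CPM in replicate 4 (others 141 to 143), and in replicate 1 Psmd3 was at 237 (223 to 224), Psmg3 at 18.6 (16.6 to 16.9) and Psmd10 at 21.3 (24.1 to 24.5). In Mel321-31 replicate 3, Psmd5 was at 65.6 CPM (70.8 to 71.5). In MGO.53 replicate 2, the library of lowest depth, Psmb2 was at 108 CPM (91.8 to 94.0), Psmd14 at 131 (138 to 139) and Psme2b at 1.45 (0.654 to 0.737). No explanation was tested.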

How the results depend on the processing

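For Mel321-31 against MGO.53 (1 called) the count was 0 with upper quartile scaling, with 15 libraries and no batch term, with the epithelial sum as a covariate and at an adjusted p under 0.01; 2 with DESeq2 and with the length trend removed; 3 with no filter on low counts and with the 2 groups alone; and 0 to 5 with a library left out. For Mel322-34 (4 called) it was 7 with DESeq2, 1 with the length trend removed and with the epithelial sum, 0 at an adjusted p under 0.01, and 0 to 4 with a library left out. The lone sample of Mel321-35 left by that step was assumed to vary like the other groups. All other comparisons stayed at 0 under every alternative run. The replicate numbers did not pair libraries (same-number correlations of deviations -0.208 to 0.270, median 0.024; 4 of 14 libraries correlated best with their own number); a replicate block gave 2 calls for Mel321-31 and 5 for Mel322-34. Among ratios, Psmb9 over Psmb6 with Mel321-35 reversed to -0.822 with the batch 2 library and ranged from -0.0701 (without replicate 4) to 0.639 with a library left out, and Psmb10 over Psmb7 with Mel321-35 ranged from -0.109 to 0.0287 (without replicate 3), with 0.00308 without MGO.53 replicate 2. Psmb8 over Psmb5 gave no value with the batch 2 library, whose Psmb8 count was 0. Leaving out a library, the Psmb8 to Psmb5 difference ranged from -1.66 to -1.17 with Mel321-31, -0.908 to -0.354 with Mel322-34 and -1.16 to -0.372 with Mel321-35. The causes were not tested, except that a stricter threshold leaves less to call.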
